A study of Homo sapiens with 6 samples.

Results

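The genes described here are 39 genes of the NF-kB pathway and of the inflammatory response it is known to drive. They were chosen by symbol: the 5 NF-kB subunits, 5 genes of the IkB family with BCL3, 5 feedback and survival proteins, 11 secreted cytokines and growth factors, 8 chemokines, the secreted pentraxin PTX3, 3 surface proteins and the prostaglandin enzyme PTGS2. All 39 were among the 25680 gene symbols of the count files, CXCL8 under that name. Of these, 32 passed the filter on low counts and were tested. The cells were U87, an established human glioblastoma line, labelled wild type. Every library came from cells that had been given 500 nM of rhodamine-tagged EPP6, a cyclic peptide, for 1 h and then detached and sorted by rhodamine fluorescence. The brightest 30% are called high uptake and the dimmest 30% low uptake, with 3 libraries each, numbered 2, 3 and 4 in both groups. The title of the series concerns proteins behind the uptake of cyclic peptides. No untreated cells stand beside these libraries.

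NF-kB is a family of transcription factors that act as pairs of subunits and are held in the cytoplasm of resting cells by inhibitors of the IkB family. Signals from cytokine receptors, Toll-like receptors or cell stress activate a kinase complex that marks the inhibitors for destruction, and the freed subunits then switch on cytokines, chemokines and adhesion molecules. They also switch on their own brakes, among them NFKBIA and TNFAIP3, so that the response is short. Glioblastoma cells are known to secrete several of these factors, including IL6, CXCL8 and LIF.

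Total counts ranged from 13712263 to 40742857 per library, and both libraries numbered 2 were the deepest of their group, at 40742857 in high uptake and 38048334 in low uptake. The libraries numbered 2 also stood apart in expression: on the second principal component of log counts they lay at 18.6 and 23.8, against -23.1 to -4.99 for the 4 others. Results that rest on these libraries are given below with and without them. The labels do not say whether replicates were separate cultures, so the tests rest on a spread that may be technical. Of the markers of glioma cells, VIM, CD44 and EGFR were abundant, while SOX2 and S100B reached at most 2 counts in any library. In edgeR's test of high against low uptake, given below, CHI3L1 had the smallest p of these markers (log2 0.99, SE 0.260, adjusted p = 0.0890). CHI3L1 passed without both libraries numbered 2 (log2 0.69, adjusted p = 8.38e-06). Its adjusted p ran from 0.00213 to 0.343 over fits that left out 1 library. The 11 markers of immune cells summed to 16.8 to 22.3 CPM (counts scaled to library size) in high uptake and 19.0 to 21.8 CPM in low uptake, most of it CSF1R. The leukocyte marker PTPRC had at most 6 counts and AIF1 had 0 counts in all 6 libraries. The 9 markers of endothelial and epithelial cells summed to 10.8 to 12.5 CPM in high uptake and 11.9 to 12.4 CPM in low uptake. None of the 9 passed edgeR's test with all libraries. KDR had the smallest p of them, with log2 -0.56 to -0.37 and adjusted p 0.0669 to 0.262 over fits that left out 1 library.

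In the comparison of high with low uptake, no member passed edgeR's test at an adjusted p of 0.05, against 4.29% of all 14598 tested genes. Of all genes 3.03% were higher (442) and 1.26% lower (184), or 1394 and 1069 once a trend with GC content was taken out of every library. At an unadjusted p under 0.05 there were 6 members, BCL3 higher and RELB, NFKBIB, NFKBIE, TNFAIP2 and TRAF1 lower, which is 18.8% of those tested against 18.4% of all genes (10.4% higher, 7.97% lower). The median log2 fold change of the 32 members was -0.25, against -0.00 over all tested genes, with 9 values above 0 and 23 below. DESeq2 called BCL3 and TRAF1 (6.08% of all genes), and limma called TRAF1 (4.4% of all genes). The values of the groups did not overlap in 5 members (NFKB1, NFKBIE, TRAF1, IL1A and BCL3), or 15.6% of those tested against 24.5% of all genes. What many members showed instead was a wide spread between libraries of the same group, which was larger for most secreted factors than for the subunits. The standard deviation described next was small for the secreted IL1A (0.11) and CSF1 (0.18), and reached 0.29 for the subunit RELB. The median standard deviation of log2 CPM within a group was 0.17 for the 5 subunits, 0.51 for the 8 tested cytokines, 1.11 for the 5 tested chemokines and 0.14 for all tested genes.

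**Figure D1:**
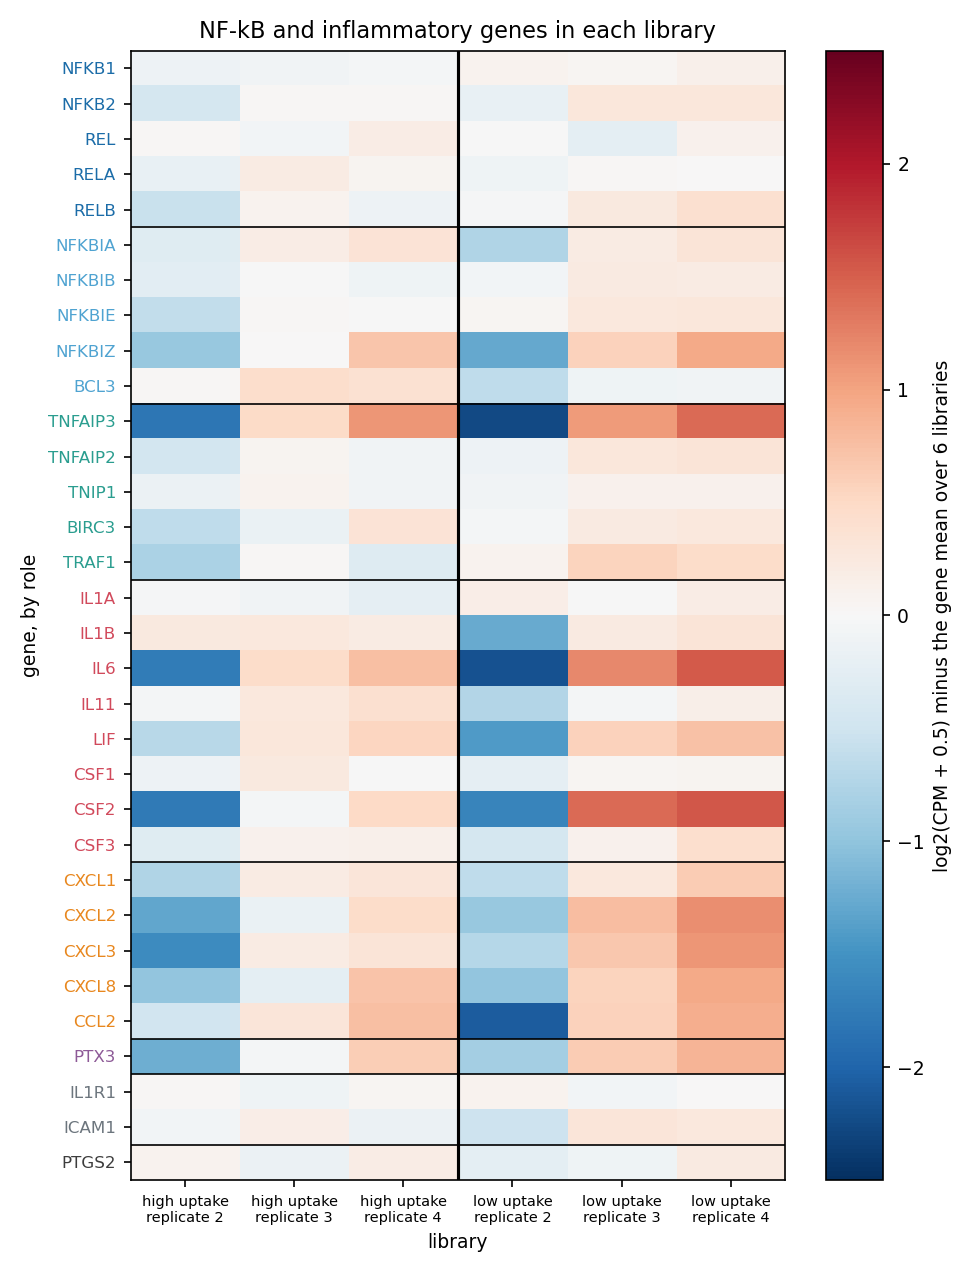
Each row is a tested member and each column a library. The colour gives log2(CPM + 0.5) minus the mean of that gene over the 6 libraries, and rows are grouped by role with the gene names coloured to match (subunits at the top, then IkB family, feedback proteins, cytokines, chemokines, PTX3, surface proteins and PTGS2). The darkest blue is at TNFAIP3, IL6 and CSF2 in high replicate 2 and at TNFAIP3, IL6 and CCL2 in low replicate 2. Both of these columns are blue for every chemokine shown, while the subunit rows are paler.

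None of the 5 transcription factor subunits passed the test with all 6 libraries. On the length-corrected scale of transcript abundance (TPM, scaled to a fixed total), RELA, the main activating subunit, was the most abundant at a mean of 107 TPM over the 6 libraries, followed by NFKB2 at 31.1, NFKB1 at 25.6, RELB at 18.1 and REL at 2.56 TPM. RELA stood at 99.2, 130.2 and 118.8 CPM in high replicates 2, 3 and 4 and at 105.0, 115.5 and 114.1 CPM in low replicates 2, 3 and 4. The groups overlapped, and the log2 difference was 0.06 (SE 0.102, adjusted p = 0.834). NFKB1, which encodes the p105 precursor of the p50 subunit, had 39.5, 40.5 and 41.5 CPM in the high group and 45.5, 44.3 and 47.3 CPM in the low group. All 3 high-uptake values lay below the low-uptake values, as for 11.4% of all tested genes, but the difference did not pass (log2 -0.17, SE 0.0821, adjusted p = 0.291). NFKB2, the precursor of p52, had 36.2, 50.2 and 50.1 CPM against 43.3, 59.6 and 59.8 CPM. RELB, the partner of p52 in the noncanonical pathway, had 11.1, 17.6 and 15.1 CPM in the high group and 16.3, 19.6 and 22.1 CPM in the low group (log2 -0.42, SE 0.165, adjusted p = 0.195). For both genes, the library numbered 2 was the lowest of its group and the groups overlapped. RELB passed without high replicate 3 (log2 -0.57, adjusted p = 0.0453, up to 0.515 without another library) and NFKB1 (adjusted p = 0.0387) and RELB (adjusted p = 0.0153) passed with the GC trend removed.

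Among the IkB genes, BCL3 gave the smallest p of all members. BCL3 is a nuclear IkB-like protein that binds p50 and p52 pairs and can turn them into activators. Its level was 55.8, 74.9 and 71.3 CPM in high replicates 2, 3 and 4 and 35.0, 50.5 and 51.2 CPM in low replicates 2, 3 and 4. Every high-uptake value lay above every low-uptake value, as for 13% of all tested genes. The log2 fold change was 0.56 (SE 0.151, adjusted p = 0.0620), so that BCL3 missed the threshold with all 6 libraries. It passed in DESeq2 (adjusted p = 0.00418), without high replicate 2 (log2 0.69, adjusted p = 0.0275, up to 0.192 without another library), without a filter on low counts and with the GC trend removed. NFKBIA, the inhibitor that NF-kB itself induces, stood at 60.9, 85.8 and 95.8 CPM in the high group and 44.4, 87.5 and 93.9 CPM in the low group, with full overlap (log2 0.11, SE 0.317, adjusted p = 0.911). NFKBIZ, an inducible nuclear member that takes part in IL6 expression, spread far more, from 19.9 to 63.8 CPM in high uptake and from 15.8 to 75.6 CPM in low uptake, with the library numbered 2 lowest in each group. NFKBIB and NFKBIE, inhibitors that hold NF-kB pairs in the cytoplasm, had log2 fold changes of -0.25 (adjusted p = 0.244) and -0.42 (adjusted p = 0.243), and for NFKBIE all high-uptake values lay below the low-uptake values.

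The feedback and survival proteins differed in their spread between libraries, with a within-group SD of log2 CPM of 1.84 for TNFAIP3, 0.39 for BIRC3, 0.38 for TRAF1, 0.26 for TNFAIP2 and 0.12 for TNIP1. TNFAIP3, also called A20, is a ubiquitin-editing enzyme that shuts the pathway off. It had 8.88, 45.6 and 70.5 CPM in high replicates 2, 3 and 4 and 6.41, 68.7 and 87.7 CPM in low replicates 2, 3 and 4. Both libraries numbered 2 were several times lower than the 4 others, and between the groups there was no difference beyond that spread (log2 -0.37, SE 1.23, adjusted p = 0.924). TNIP1, a partner of TNFAIP3, varied little, with 108.7, 128.5 and 113.7 CPM in the high group and 114.2, 130.9 and 130.6 CPM in the low group. TRAF1, a signalling adaptor of TNF receptors, had 2.18, 4.23 and 3.24 CPM in the high group and 4.42, 6.36 and 5.91 CPM in the low group. The groups did not overlap, and the log2 fold change of -0.85 (SE 0.228) came with an adjusted p of 0.0632 in edgeR and 0.0144 in DESeq2. TRAF1 also passed without high replicate 3 (log2 -1.04, adjusted p = 0.0113), without low replicate 2 (log2 -1.01, adjusted p = 0.0199, up to 0.192 without another library), without a filter and with the GC trend removed. TNFAIP2, a TNF-induced protein of the cell cortex, had 52.4, 75.9 and 68.6 CPM against 66.5, 88.2 and 90.7 CPM (log2 -0.32, adjusted p = 0.270), and BIRC3, an inhibitor of cell death, at 6.60 ± 2.39 and 7.94 ± 0.993 CPM (SD, n = 3 each).

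The secreted cytokines were dominated by LIF, a cytokine of the IL6 family, at a mean of 153 TPM. LIF had 136.1, 268.5 and 321.4 CPM in high replicates 2, 3 and 4 and 82.1, 330.9 and 367.7 CPM in low replicates 2, 3 and 4, with the library numbered 2 lowest in each group (log2 -0.10, SE 0.694, adjusted p = 0.964). IL6 showed the same order, with 3.76, 19.4 and 23.6 CPM in the high group and 2.66, 32.4 and 40.9 CPM in the low group (log2 -0.70, SE 1.22, adjusted p = 0.831). CSF2, the growth factor GM-CSF, had 5, 21 and 84 counts in the high-uptake libraries and 7, 114 and 117 counts in the low-uptake libraries. Scaled to library size, that was 0.124, 1.56 and 2.52 CPM against 0.181, 5.18 and 5.72 CPM. In CSF2, too, the library numbered 2 was the lowest of each group (log2 -1.38, SE 1.46, adjusted p = 0.700). IL1B, an activator of the pathway, was alike in 5 libraries, between 37.9 and 41.4 CPM, and was at 13.4 CPM in low replicate 2 alone. IL11, another cytokine of the IL6 family, stood at 45.7, 56.5 and 62.4 CPM against 28.2, 45.8 and 52.5 CPM (log2 0.39, SE 0.200, adjusted p = 0.344). CSF1, the growth factor of macrophages, varied little, at 114.9 ± 15.5 and 109.1 ± 12.1 CPM, while IL1A was at 4.16 ± 0.316 and 4.92 ± 0.372 CPM and CSF3 at 23.0 ± 3.73 and 24.3 ± 7.09 CPM (SD, n = 3 each). TNF and LTB, ligands of the TNF family, had 0 counts in every library. That allows up to 0.0742 CPM in the deepest library and 0.223 CPM in the shallowest (3 counts each, counting error only). IL32 had at most 7 counts and was not tested.

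Of the chemokines, CXCL8 was the most abundant at a mean of 102 TPM, followed by CXCL2 at 44.7, CCL2 at 28.9, CXCL3 at 12.5 and CXCL1 at 1.44 TPM. CXCL8, which attracts neutrophils, had 31.2, 52.6 and 103.1 CPM in high replicates 2, 3 and 4 and 31.3, 92.5 and 120.3 CPM in low replicates 2, 3 and 4. CXCL2, another neutrophil attractant, had 7.30, 16.5 and 25.8 CPM in the high group and 9.44, 32.1 and 42.5 CPM in the low group. CCL2, which attracts monocytes, had 5.10, 9.12 and 12.6 CPM against 1.34, 11.1 and 14.0 CPM. In each of these genes the library numbered 2 was the lowest of its group and the groups overlapped. None passed the test, with log2 fold changes of -0.37 (SE 0.712) for CXCL8, -0.74 (SE 0.773) for CXCL2, -0.75 (SE 0.816) for CXCL3, -0.31 (SE 0.643) for CXCL1 and 0.07 (SE 0.919) for CCL2. CXCL5 and CCL20 had at most 12 counts in a library and CXCL6 had 0 counts in all 6, and none of these was tested. CXCL1 and CXCL2 transcripts align over 1101 bases with 88.7% identity, and CXCL2 and CXCL3 over 582 bases with 85.4%, so their counts may exchange some reads.

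PTX3, a secreted pattern recognition protein, had 12.6, 29.3 and 46.8 CPM in the high group and 16.6, 47.4 and 54.5 CPM in the low group, with the libraries numbered 2 again lowest (log2 -0.41, SE 0.703, adjusted p = 0.829). The surface proteins and PTGS2 had ratios under 2 between these libraries in both groups, by the measure given below. IL1R1, the receptor of IL1A and IL1B, lay between 31.2 and 35.7 CPM in all 6 libraries (log2 -0.02, SE 0.0901, adjusted p = 0.945). ICAM1, an adhesion molecule for leukocytes, had 9.48, 11.1 and 8.88 CPM in high replicates 2, 3 and 4 and 6.78, 12.3 and 11.9 CPM in low replicates 2, 3 and 4. The library numbered 2 was thus the lowest in low uptake but not in high uptake. PTGS2, the inducible cyclooxygenase, was at 18.4 ± 2.12 and 17.3 ± 3.04 CPM (SD, n = 3 each). VCAM1, an adhesion molecule of activated endothelium, had at most 2 counts.

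To describe this spread, the mean CPM of replicates 3 and 4 was divided by that of replicate 2 in each group, after adding 0.5 CPM, a measure chosen after the values were seen. In 11 of the 32 tested members this ratio was at least 2 in both groups, against 0.192% of all tested genes, or 28 of 14598. These were TNFAIP3, NFKBIZ, IL6, LIF, CSF2, CXCL1, CXCL2, CXCL3, CXCL8, CCL2 and PTX3, so that members made up 39.3% of such genes. The ratios of the 11 ran from 2.02 for CXCL1 to 6.24 for TNFAIP3 in high uptake and from 2.14 for CXCL1 to 11.7 for IL6 in low uptake. By role they were 9 of 14 tested secreted factors and 2 of 15 proteins inside the cell. The other 21 members had ratios of 0.917 to 1.67 in high uptake and 0.932 to 2.92 in low uptake. No tested gene had a ratio of 0.5 or less in both groups. Without a bound on the ratio, both libraries numbered 2 lay below the 4 others in 18 tested members (56.25%, against 14.6% of all tested genes). Of these, 12 were secreted and 6 act inside the cell. Of the fixed lists of other genes, IRF1, a transcription factor downstream of NF-kB and interferon, and MMP1, a collagenase, also passed 2 in both groups. In low uptake IRF1 stood at 20.4, 49.8 and 55.2 CPM. Sequencing depth moves with this split, since the libraries numbered 2 are the deepest of each group, and its part was not tested. In RNA from pooled cells, fewer expressing cells and less RNA in each cell cannot be told apart.

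**Figure D2:**
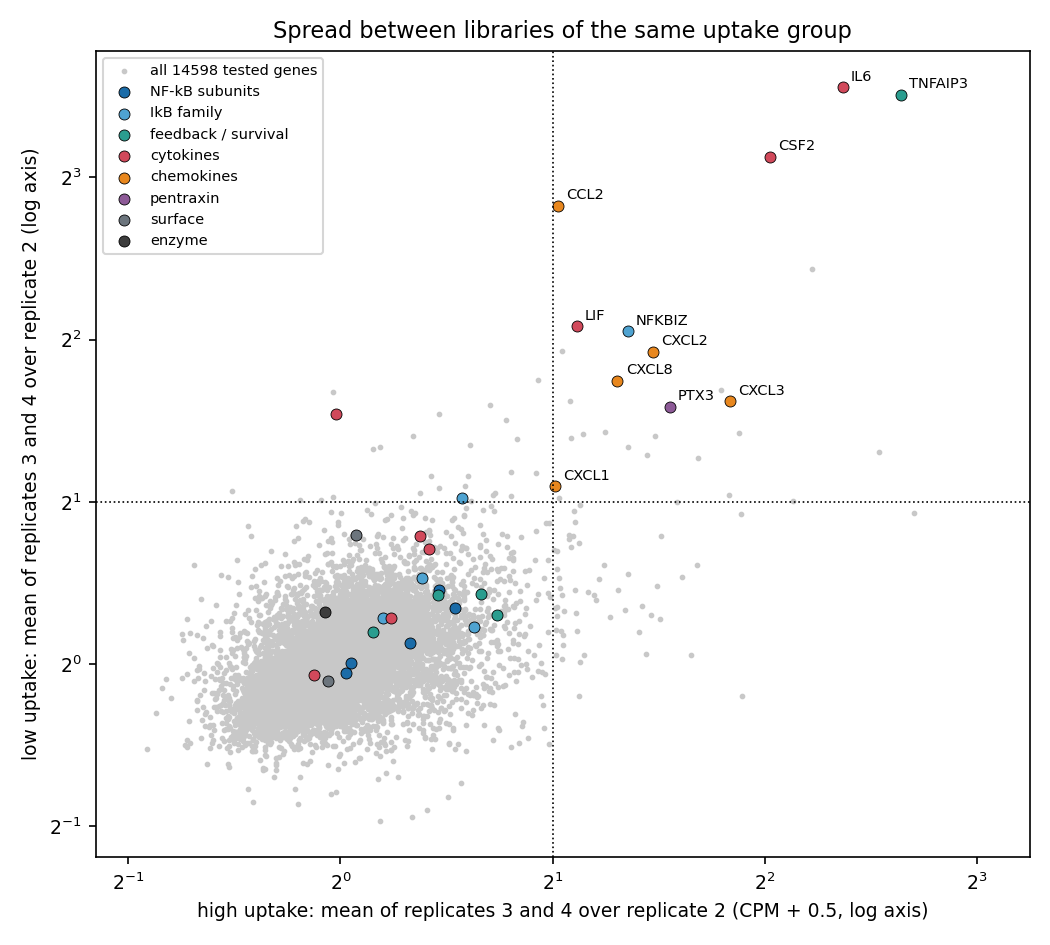
Ratio of the mean of replicates 3 and 4 to replicate 2, in high uptake (horizontal, log axis) and in low uptake (vertical, log axis), on the scale of CPM + 0.5. Grey points are all 14598 tested genes, coloured points are members by role and dotted lines mark a ratio of 2. The 11 labelled members lie beyond both lines, where 28 genes lie in all, and TNFAIP3, IL6 and CSF2 are the farthest along both axes.

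To set sequence beside this spread, the RefSeq promoters of the members were searched on both strands for GGG followed by any 3 bases and TTCC, a simple form of the binding site of NF-kB. The table gives 250 bases before to 50 after a gene's start in build GRCh38.p14, whereas the counts were made on hg19. It held 33 of the 39 members and none for RELB, NFKBIE, LIF, CSF1, CSF3 and CCL2. A match was found in 15 of the 33, against 6.52% of all 35116 promoters. The 35116 were all promoters listed, while 1 promoter was kept for each member, so the shares are not on the same basis. The members were also picked as genes of this pathway, so a higher share carries no weight as support. Looser forms of the site were not searched. Of the 9 genes with an entry among the 11 above, 6 had a match, and of 17 among the other tested members, 4 had one. Among the 6 were CXCL1, CXCL2 and CXCL3, whose promoters hold the same matching letters. Their transcripts also align, as given above, so they are not separate cases. A match describes letters only, and both kinds of gene had them: NFKB1, whose level varied little within each group, holds the same 10 letters as CXCL2 and CXCL3. The 120 bases before the gene's start are shown for 4 of the 11 genes and for NFKB1, 5′ to 3′ on the gene's own strand, with matches in capitals. In CXCL2 and CXCL3 matches on both strands overlap and are shifted by 1 base. The capitals begin 67 and 55 bases before the start in TNFAIP3, 73 in IL6, 78 in CXCL2, 79 in CXCL3 and 49 in NFKB1.
TNFAIP3, chr6:137867139-137867258, plus strand: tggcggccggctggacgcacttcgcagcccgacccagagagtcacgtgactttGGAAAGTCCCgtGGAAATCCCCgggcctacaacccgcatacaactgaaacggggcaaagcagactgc
IL6, chr7:22727080-22727199, plus strand: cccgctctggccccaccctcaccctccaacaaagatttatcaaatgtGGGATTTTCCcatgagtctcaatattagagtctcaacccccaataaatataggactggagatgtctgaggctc
CXCL2, chr4:74099196-74099315, minus strand: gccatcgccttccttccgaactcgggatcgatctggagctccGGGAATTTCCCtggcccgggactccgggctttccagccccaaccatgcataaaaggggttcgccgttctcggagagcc
CXCL3, chr4:74038690-74038809, minus strand: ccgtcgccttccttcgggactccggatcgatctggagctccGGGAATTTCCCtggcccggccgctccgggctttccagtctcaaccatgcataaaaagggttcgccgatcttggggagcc
NFKB1, chr4:102501239-102501358, plus strand: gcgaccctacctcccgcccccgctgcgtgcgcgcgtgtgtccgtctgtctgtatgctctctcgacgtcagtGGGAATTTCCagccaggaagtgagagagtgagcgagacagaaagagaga

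With both libraries numbered 2 left out, which leaves 2 libraries in each group, 7 members passed edgeR's test, against 5.51% of the 14314 genes tested in that fit (3.62% higher, 1.89% lower). Of the members, BCL3 was higher and 6 were lower. Secreted factors gave 4 of the calls. CSF2 fell by 1.30 on the log2 scale (SE 0.200, adjusted p = 1.40e-05), IL6 by 0.75 (SE 0.116, adjusted p = 1.69e-05), CXCL2 by 0.77 (SE 0.159, adjusted p = 0.00765) and CXCL3 by 0.66 (SE 0.154, adjusted p = 0.00498). BCL3 rose by 0.52 (SE 0.0981, adjusted p = 3.36e-04), TRAF1 fell by 0.78 (SE 0.177, adjusted p = 0.00380) and TNFAIP2 fell by 0.31 (SE 0.0971, adjusted p = 0.0489). TNFAIP3 (log2 -0.41, adjusted p = 0.200), CXCL8 (-0.42, 0.759) and PTX3 (-0.39, 0.150) did not pass, nor did LIF (-0.24, 0.138), NFKBIA (0.01, 0.979) or, in that fit, any of the 5 subunits. The log2 fold changes of IL6, CXCL2, CXCL3, CSF2, BCL3 and TRAF1 lay within 0.1 of those from all 6 libraries. The standard errors of the 4 secreted factors had been 0.773 to 1.46 there. In these 4, the libraries numbered 2 held the lowest values and weigh little in the group means. The closeness is thus no separate support, and smaller errors follow from leaving out the libraries seen to differ. Between the libraries numbered 2, the log2 difference was 0.49 for IL6, -0.37 for CSF2, -0.37 for CXCL2 and -1.04 for CXCL3. Calls among the members also moved under other settings without these libraries, which were chosen after the values were seen. With the GC trend also removed, CXCL2 no longer passed (log2 -0.69, adjusted p = 0.418), while NFKB2 (-0.21, 0.0287), RELB (-0.33, 0.0143) and NFKBIB (-0.25, 0.0179) passed as lower and IL11 (0.33, 0.0441) as higher. RELB also passed there with upper quartile scaling (log2 -0.39, adjusted p = 0.0395).

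**Figure D3:**
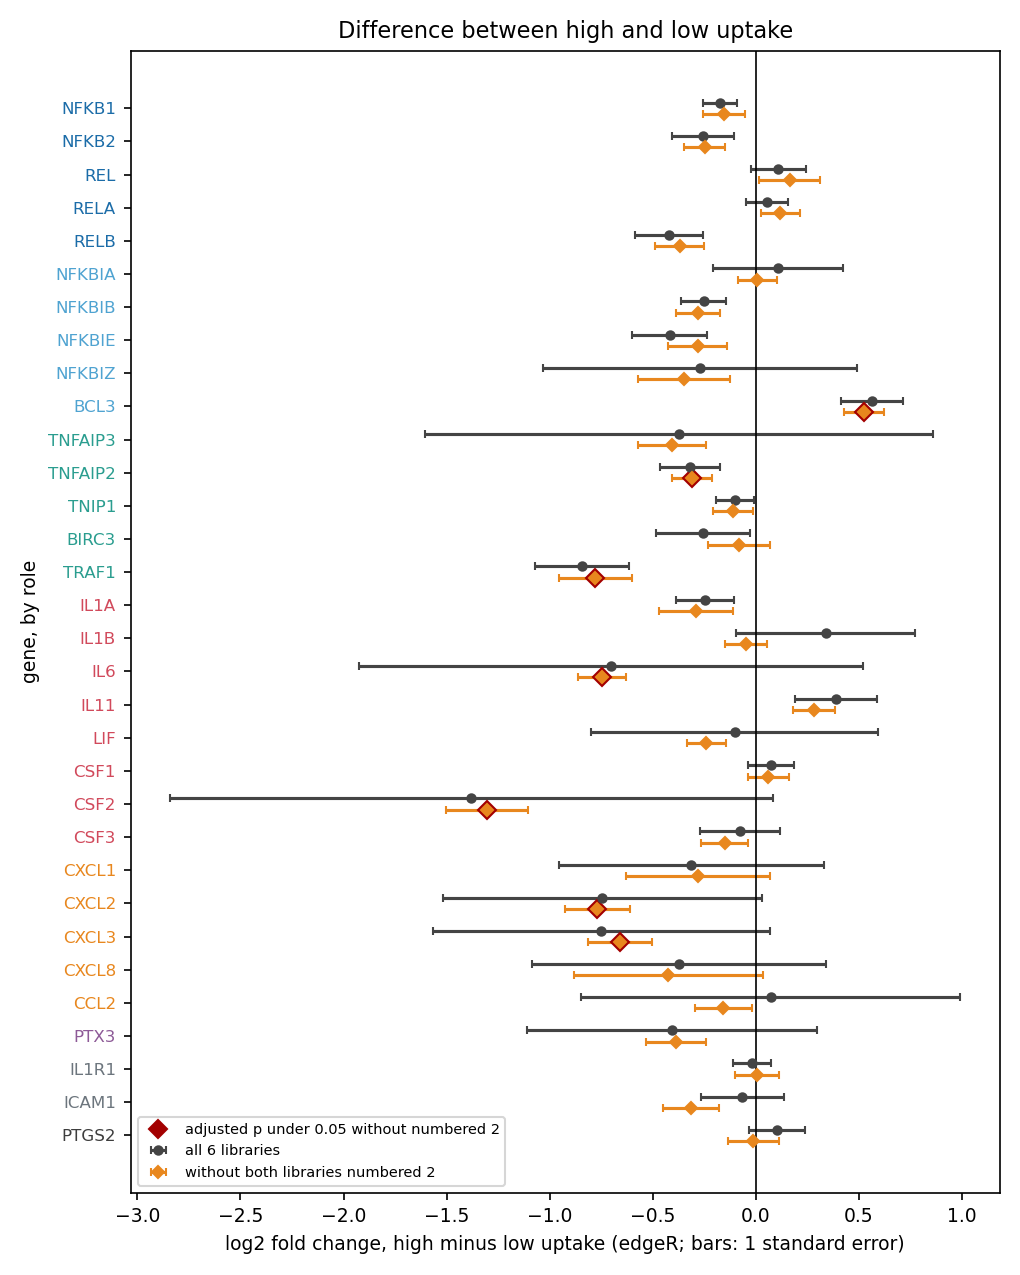
Log2 fold change of high against low uptake for the 32 tested members from edgeR, with bars of 1 standard error, from all 6 libraries (grey circles) and without both libraries numbered 2 (orange diamonds, red where the adjusted p was under 0.05). The error bars of TNFAIP3, IL6 and CSF2 exceed 1 log2 unit with all libraries, and red diamonds mark BCL3 above 0 and TNFAIP2, TRAF1, IL6, CSF2, CXCL2 and CXCL3 below 0.

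Set side by side, the 15 members that act inside the cell were all tested and the 20 secreted members were tested in 14 cases. Their median log2 fold changes were -0.26 and -0.28 with all libraries and -0.25 and -0.29 without the libraries numbered 2, where the median of all genes was -0.00. Without those libraries, 11 of 15 inside members and 12 of 14 secreted members had values below 0, and 1 inside member was called higher, 2 inside members lower and 4 secreted members lower. The median within-group standard deviation of log2 CPM was 0.27 for inside members and 0.96 for secreted ones. These are counts over genes chosen by name and carry no test.

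Counts for the wider pathway are read against the 4.29% of all tested genes that passed, and the 18.4% with an unadjusted p under 0.05. Of 15 genes of the kinase complex and its upstream kinases none passed, and MAP3K14, the kinase of the noncanonical pathway, was the 1 gene with an unadjusted p under 0.05 (log2 -0.45, SE 0.116, adjusted p = 0.0515). It passed with RLE scaling, in DESeq2 and in limma, and without both libraries numbered 2 (log2 -0.43, adjusted p = 0.0159). With single libraries left out, MAP3K14 passed without high replicate 3 (0.0199) or low replicate 2 (0.0237), but its adjusted p was up to 0.193 without another library. Of 18 adaptors and ubiquitin enzymes, 2 fell. TNIP3, an inducible partner of TNFAIP3, was at 1.02 ± 0.277 CPM in the high group and 2.23 ± 0.463 CPM in the low group (log2 -1.18, adjusted p = 0.0307), and TRAF5, a TNF receptor adaptor, at 4.16 ± 0.214 and 6.73 ± 1.46 CPM (log2 -0.70, adjusted p = 0.0376). Of 16 tested receptors that feed the pathway, 1 rose and 2 fell. TNFRSF21, the death receptor DR6, rose from 64.1 ± 6.75 CPM in low uptake to 116.8 ± 1.13 CPM in high uptake (log2 0.87, SE 0.0907, adjusted p = 6.52e-04), and passed in each fit that left out 1 library. TLR4, the receptor of bacterial lipopolysaccharide, fell by 0.86 (adjusted p = 0.00949) and TLR3, which senses double-stranded RNA, by 0.70 (adjusted p = 0.0370). Of 22 tested further targets only SERPINB2, an inhibitor of plasminogen activators, passed (log2 -0.64, adjusted p = 0.0218). Of 7 tested receptors and related proteins of the member cytokines and 13 partner transcription factors none passed in edgeR. The smallest p belonged to OSMR, a receptor of the related cytokine oncostatin M (log2 0.23, adjusted p = 0.143), and to SP1 (log2 0.27, adjusted p = 0.0903). Of the 7 and the 13, 3 and 4 had an unadjusted p under 0.05. The calls of TNIP3, TRAF5, TLR3 and SERPINB2 were lost when single libraries were left out, with adjusted p up to 0.126, 0.115, 0.110 and 0.0861, and those of TRAF5 (0.0580) and TLR3 (0.129) also without both libraries numbered 2. Without those libraries TNIP3, TNFRSF21, TLR4 and SERPINB2 passed again. Besides MAP3K14, given above, 2 more genes not called with all libraries passed there. The 2 were BIRC2, an inhibitor of cell death (log2 0.32, adjusted p = 0.0494), and CCL3, a chemokine (log2 -1.10, adjusted p = 0.00996).

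The authors' deposited table, a list of 2305 gene symbols with no values or directions, held 6 members: BCL3, RELB, NFKBIB, NFKBIE, TNFAIP2 and TRAF1. That is 18.8% of the tested members against 15.8% of all tested genes. These 6 are the members with an unadjusted p under 0.05 above, and none of the secreted factors was in the list.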

How the data were processed

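RNA-seq libraries of sorted U87 cells were compared, 3 of high and 3 of low uptake, grouped by sample title. The deposited files gave counts of reads for each symbol beside FPKM and TPM values made by the authors, per the file headers. The authors also deposited a bare list of gene symbols. The submitters' processing notes name fastp, STAR, featureCounts and build hg19. Versions, annotation and strand setting were not stated in those notes. Exons of NFKBIB, IL6 and PTX3 overlap a gene on the opposite strand by 40, 46 and 71 bases, and those of BCL3 overlap MIR8085 on the same strand by 65 bases. FPKM values were not used, and TPM values were used only to rank genes.

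Counts were tested with edgeR 4.0.16 (R 4.3.3): filterByExpr (minimum count 10, minimum total 15), TMM scaling, robust quasi-likelihood F-test, two-sided, Benjamini-Hochberg adjustment over 14598 genes, threshold 0.05. The standard error is the log2 fold change divided by the square root of F. CPM values are scaled by TMM. The within-group standard deviation used log2 CPM with a prior count of 2. DESeq2 1.42.0 and limma 3.58.1 were run as alternatives, as were other scalings and filters, a GC correction (lowess span 0.3; GC content known for 92.9% of tested genes), each library left out, and both libraries numbered 2 left out. Scripts were tested on simulated counts. The members and lists were chosen with earlier results of these data known. All members are accounted for, with values per library for up to 3 of highest CPM in each role. RELB, TRAF1, IL6, CSF2, IL1B, NFKBIZ and IL11 were described further after their values were seen. From each other list, genes past the threshold or else the one of smallest p were named. IRF1 and MMP1 were named after their values were seen.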

Additional observations from a re-analysis of the deposited data

How the results depend on the processing

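The count of members that passed was 0 under RLE and upper quartile scaling and under a stricter filter (50 counts in 3 or more libraries). It was 1 in limma (against 4.4% of all genes), 2 in DESeq2 (6.08%) and 2 without a filter. With the GC trend removed it was 6 (against 16.9% of all genes). It was 7 without both libraries numbered 2 (against 5.51% of the genes tested in that fit). Without those libraries it was 7 with RLE scaling, 8 with upper quartile scaling and 10 with the GC trend removed, settings added after the data were seen. Leaving out a single library gave 0 to 2 members and 232 to 738 of all genes, with 232 without low replicate 4, 276 without low replicate 3, 282 without high replicate 2 and 379 without high replicate 4. Over all genes, 626 passed as tested, 2463 with the GC trend removed (1394 higher, 1069 lower) and 2266 with that trend and both libraries numbered 2 removed. The causes were not tested.

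The labels do not say whether libraries of the same number form pairs, so the main test left the number out. Deviations of same-numbered libraries correlated at 0.45, 0.30 and 0.087 across genes. High replicate 2 correlated at -0.33 and -0.27 with low replicates 3 and 4. Low replicate 4 correlated best with high replicate 3, at 0.22. These values do not settle whether the numbers pair the libraries. With the replicate number as a block, 12 members passed (2 higher, 10 lower), or 37.5% of those tested against 21.8% of all genes (3176). With the block and the GC trend removed, 13 members and 4061 genes passed.

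Fold changes of the following genes changed sign under an alternative, and none of them was called with all libraries. In limma, LIF was at 0.11 and ICAM1 at 0.0014. With the replicate block LIF was at 0.069, and at 0.072 with the GC trend also removed. Without both libraries numbered 2, IL1B was at -0.049, CCL2 at -0.16, IL1R1 at 0.0045 and PTGS2 at -0.013. Over the 6 fits that left out 1 library, log2 fold changes ran from -0.045 to 0.16 for RELA, -0.17 to 0.30 for NFKBIA, -0.77 to 0.16 for NFKBIZ, -1.04 to 0.17 for TNFAIP3, -0.61 to 0.0072 for BIRC3, -0.045 to 0.60 for IL1B, -0.53 to 0.23 for LIF, -0.048 to 0.15 for CSF1, -0.30 to 0.14 for CSF3, -0.96 to 0.30 for CXCL1, -0.96 to 0.023 for CXCL8, -0.51 to 0.60 for CCL2, -0.054 to 0.016 for IL1R1, -0.32 to 0.085 for ICAM1, -0.0063 to 0.24 for PTGS2, -0.54 to 0.15 for IRF1, -0.78 to 0.24 for MMP1. Direction held under both other scalings for every member. CSF2 and CXCL1 had fewer than 10 counts in both libraries numbered 2, the deepest of their groups.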
